A study of Rattus norvegicus with 9 samples.

Results

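The dual-specificity MAP kinase phosphatases were followed by 10 genes, Dusp1, Dusp2, Dusp4, Dusp5, Dusp6, Dusp7, Dusp8, Dusp10, Dusp14 and Dusp16, looked up by symbol among the 18006 genes with a value. All 10 were found. RNA was taken from the rat line RBL-2H3, which derives from a basophilic leukemia and serves as a model of the mast cell (MC), in 3 groups of 3 samples. The labels also name peripheral blood as the tissue. The Ctrl samples were untreated by one label field, while a protocol field shared by all 9 samples gives sensitization and stimulation, so it is not settled whether Ctrl cells received IgE. The IgE/DNP samples (DNP) were sensitized with anti-DNP IgE at 50 ng/mL for 12 h and then given the antigen DNP-HSA at 100 ng/mL for 4 h. The PF samples received the same IgE and DNP-HSA after pretreatment for 1 h with PF, which the labels do not spell out, and their stimulation time is 4 h in one field but 4, 5 and 6 h for replicates 1, 2 and 3 in another. No label says whether the replicates were separate cultures, so p-values cover only the spread between these samples, which may be technical.

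MAP kinases (ERK, JNK and p38) are switched on by phosphorylation of a threonine and a tyrosine, and dual-specificity phosphatases remove both phosphates. Many DUSP genes are themselves induced by MAP kinase signaling, so they act as negative feedback. Crosslinking of IgE on its receptor, FcεRI, activates these kinases in MCs and leads to cytokine transcription. DUSP1, DUSP2, DUSP4 and DUSP5 are nuclear and mostly inducible, DUSP6 and DUSP7 are cytoplasmic and prefer ERK, DUSP8, DUSP10 and DUSP16 prefer JNK and p38, and DUSP14 is a small atypical member without the kinase-binding domain of the others.

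The values were read as FPKM, fragments per length of gene and per mapped total, so levels of different genes can be set side by side. Totals were between 573023 and 591539 FPKM in the Ctrl and DNP samples and between 610206 and 630069 FPKM in the PF samples. How many reads lie behind a value is unknown. Of 12 MC markers, 11 had a value, and all 11 were at 15.7 FPKM or more in each sample, among them the FcεRI subunits Ms4a2 and Fcer1a and the receptor Kit. The summed MC markers were between 5391 and 5784 FPKM over all samples, with group means of 2780 to 2914 FPKM from Srgn alone. Single MC markers differed between groups. By the test described below, 6 of 11 were called in DNP vs Ctrl, 2 higher and 4 lower, against 29.2% of all genes tested. In PF vs DNP 6 were called, 3 each way, and in PF vs Ctrl 8, 4 each way, against 48.8% and 57.7%. These counts shifted with the scaling of the samples. The 4 fibroblast markers summed to at most 0.63 FPKM in a sample, and the B cell and epithelial markers to at most 1.15 FPKM each. Of the T cell markers Cd3e was at up to 9.52 FPKM while Cd3d was at 0.11 FPKM or less, and of the macrophage markers Cd68 was at up to 1.65 FPKM. In PF vs Ctrl, Cd3e was called higher (0.25) and Cd68 lower (-0.41), the first call being lost at a common sum and the second with median ratios, and their part in the results was not tested.

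In the Ctrl samples Dusp4 had the highest level, with a mean of 67.3 FPKM, and 13.8% of the 10332 genes with a mean of at least 1 FPKM were above it. Dusp1 (39.8 FPKM) and Dusp16 (37.9 FPKM) came next and overlapped, followed by the overlapping pair Dusp6 (18.2 FPKM) and Dusp8 (17.0 FPKM). Dusp10 stood apart at 10.2 FPKM. Dusp7 (3.58 FPKM) and Dusp2 (3.25 FPKM) overlapped, and Dusp14 (1.57 FPKM) and Dusp5 (0.403 FPKM) were the lowest. Thus the mRNA of a nuclear phosphatase, Dusp4, was above that of the other 9 in Ctrl cells.

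**Figure D1:**
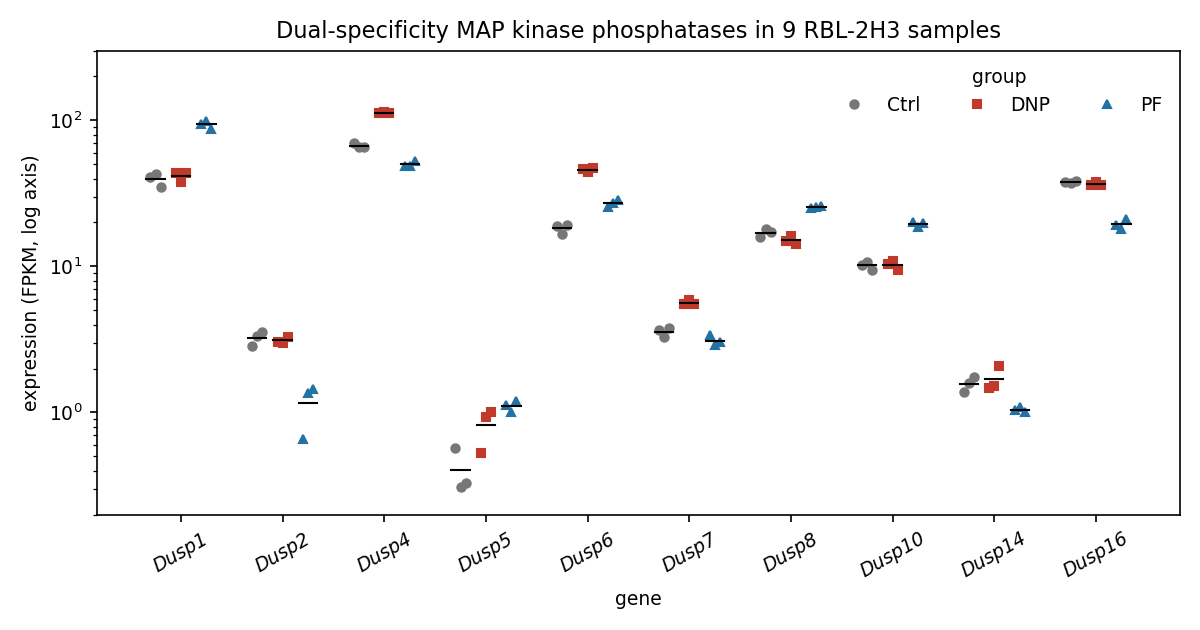
Expression of the 10 genes in FPKM on a log axis, with 1 point per sample (circles Ctrl, squares DNP, triangles PF) and a black line at each group mean. Dusp4, Dusp6 and Dusp7 are higher in DNP than in Ctrl, whereas Dusp1, Dusp8 and Dusp10 are higher in PF than in both other groups.

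The first comparison asked which of these phosphatase mRNAs differed between the DNP and Ctrl samples. Since it is not settled whether Ctrl cells received IgE, changes with IgE and with DNP-HSA cannot be told apart here. Dusp6, Dusp4 and Dusp7 rose, and no other member passed the test. The test was limma on log2(FPKM + 1), for genes that reached 1 FPKM in 3 or more of the 6 samples compared, with Benjamini-Hochberg adjustment over all of them. A change was called at an adjusted p of at most 0.05, and fold changes on this scale are understated for low genes. By this rule 29.2% of the 10392 genes tested were called, 14.7% as higher. Of the 9 members tested, 3 were called, all higher, a share near the background. The same 3 were the members whose groups did not overlap, as was the case for 45.8% of all genes tested.

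Dusp6 measured 19.0, 16.6 and 19.1 FPKM in Ctrl and 46.4, 44.3 and 47.5 FPKM in DNP. All DNP samples lay above all Ctrl samples. The means were 18.2 ± 1.42 and 46.1 ± 1.62 FPKM (SD, n = 3 each), with a ratio of 2.53. Its log2 fold change of 1.29 (95% confidence interval 1.16 to 1.43, limma adjusted p = 4.97e-06) was number 21 from the top of all genes tested. Calls with a log2 fold change of 1 or more in size made up 0.346% of the genes tested, and Dusp6 was the 1 member among them. DUSP6 is the cytoplasmic phosphatase specific for ERK, and its mRNA is widely used as a readout of ERK activity. In bulk RNA, a change in the level per cell and a change in the number of cells that express a gene cannot be told apart.

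Dusp4 measured 69.5, 66.1 and 66.2 FPKM in Ctrl and 112, 113 and 112 FPKM in DNP. Here too the groups did not overlap. Its log2 fold change was 0.73 (95% confidence interval 0.66 to 0.81, limma adjusted p = 4.84e-06), with a ratio of means of 1.67, and it was number 89 from the top. DUSP4 is a nuclear, inducible phosphatase. In the DNP samples only 7.79% of the genes with at least 1 FPKM were above it.

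Dusp7, the close relative of Dusp6 among the ERK phosphatases, measured 3.69, 3.28 and 3.76 FPKM in Ctrl and 5.57, 5.85 and 5.51 FPKM in DNP. Again every DNP sample was above every Ctrl sample. Its log2 fold change was 0.54 (95% confidence interval 0.38 to 0.70, limma adjusted p = 0.00125). Both cytoplasmic ERK phosphatases therefore rose, Dusp6 with the higher fold change. Within a sample the ratio of Dusp6 to Dusp7 was between 5.06 and 5.16 in Ctrl and between 7.57 and 8.62 in DNP, so the groups were apart (p = 0.1 by an exact permutation test, two-sided, which cannot go lower with 3 samples against 3).

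The nuclear phosphatase Dusp1, a classical immediate early gene, was at 41.1, 43.0 and 35.1 FPKM in Ctrl and at 43.6, 38.1 and 43.9 FPKM in DNP. The groups overlapped, with a log2 fold change of 0.08 (95% confidence interval -0.11 to 0.26, limma adjusted p = 0.518). The intervals of Dusp2 (-0.24 to 0.16), Dusp10 (-0.15 to 0.17), Dusp14 (-0.20 to 0.32) and Dusp16 (-0.13 to 0.04) also included 0. Dusp8 had a log2 fold change of -0.16 (95% confidence interval -0.31 to -0.02, limma adjusted p = 0.0873). It was the one member that another sample set called, since without Ctrl replicate 1 the value was -0.21 (limma adjusted p = 0.0442). For these 6 genes the data bound the difference between DNP and Ctrl at the 4 h sampled, but do not show that there was none. No earlier time was analysed, so an earlier change is not bounded.

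Dusp5, a nuclear phosphatase specific for ERK, was below the limit for testing. It was at 0.57, 0.31 and 0.33 FPKM in Ctrl and at 0.53, 0.93 and 1.01 FPKM in DNP. The DNP values overlapped the Ctrl values through DNP replicate 1. With no filter on low values, Dusp5 had a log2 fold change of 0.37 and a limma adjusted p of 0.105.

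**Figure D2:**
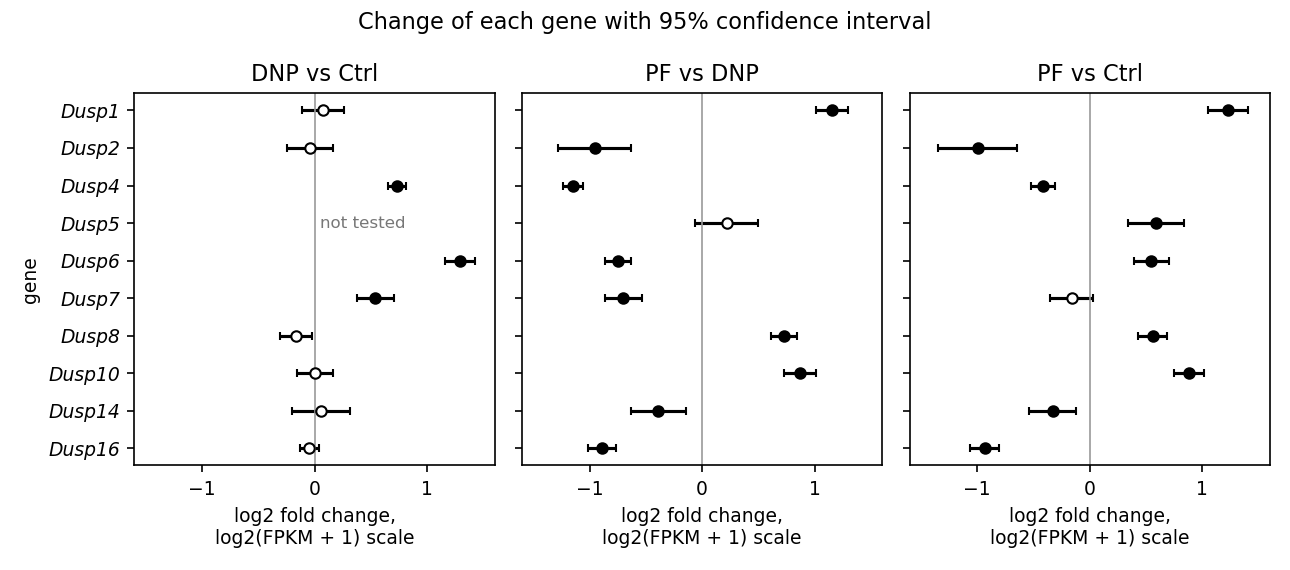
Change in log2(FPKM + 1) of the 10 genes in the 3 comparisons, with the 95% confidence interval of limma as bars. Filled points passed an adjusted p of 0.05 and open points did not. In DNP vs Ctrl 3 points are filled, all to the right of 0, and in PF vs DNP 3 are filled on the right and 6 on the left.

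The second comparison asked which of these mRNAs differed between the PF and DNP samples. A label field gives 5 and 6 h of stimulation for PF replicates 2 and 3, against 4 h for DNP. For those PF samples, changes with PF and with stimulation time cannot be told apart. The family split. Dusp1, Dusp10 and Dusp8 rose, whereas Dusp4, Dusp2, Dusp16, Dusp6, Dusp7 and Dusp14 fell. Among all 10329 genes tested 48.8% were called, 18.1% as higher and 30.7% as lower. Of the 10 members 9 were called, 3 higher and 6 lower, and in these 9 the groups did not overlap, against 57.6% of all genes tested. The median absolute log2 fold change was 0.81 over the members and 0.16 over all genes tested. This is a description only, since the members were chosen with earlier results of these data known. How genes split between higher and lower depends on the scaling of the samples. As deposited, 37.1% of the called genes were higher in PF, against 16.8% when all samples were brought to 1 common sum, the mean of the deposited ones, and 51.5% after scaling by median ratios. Under these 3 scalings all genes had a median log2 fold change of -0.04, -0.13 and 0.02, and each of the 9 members kept its direction and its call under all of them and with a sum of 1000000.

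Dusp1 was at 43.6, 38.1 and 43.9 FPKM in DNP and at 95.1, 99.7 and 88.0 FPKM in PF. The lowest PF sample was about as far above the highest DNP sample as that sample was above 0. Means were 41.9 ± 3.28 and 94.3 ± 5.89 FPKM (SD, n = 3 each), and the log2 fold change was 1.15 (95% confidence interval 1.01 to 1.30, limma adjusted p = 2.17e-06). Like Dusp6 in DNP vs Ctrl, Dusp1 in PF vs DNP was number 21 from the top of all genes tested. With a pseudocount of 1, Dusp1 and Dusp4 were the members called with a log2 fold change of 1 or more in size, as 2.36% of all genes tested were. Dusp2 lay just under that size at -0.96, though its mean was 2.7-fold lower in PF. No Ctrl or DNP sample exceeded 43.9 FPKM of Dusp1, and no sample with PF alone was analysed here.

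Dusp4 was at 112, 113 and 112 FPKM in DNP and at 48.6, 49.1 and 52.8 FPKM in PF. The PF samples were also below the lowest Ctrl sample, at 66.1 FPKM. Against DNP the log2 fold change was -1.15 (95% confidence interval -1.24 to -1.06, limma adjusted p = 2.49e-07), a 2.24-fold lower mean. Against Ctrl it was -0.42 (95% confidence interval -0.52 to -0.31, limma adjusted p = 9.99e-05). Dusp4, the highest of the 10 in DNP, was thus below its Ctrl level in the PF samples.

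Dusp6 stood at 25.5, 27.0 and 28.7 FPKM in PF. These values lay between the groups, under every DNP sample and over every Ctrl sample. The log2 fold change was -0.75 against DNP (95% confidence interval -0.86 to -0.63, limma adjusted p = 6.49e-06) and 0.55 against Ctrl (95% confidence interval 0.39 to 0.70, limma adjusted p = 2.06e-04). Dusp7 was at 3.38, 2.88 and 3.03 FPKM in PF, below all DNP samples and overlapping Ctrl. Its log2 fold change was -0.70 against DNP (95% confidence interval -0.87 to -0.53, limma adjusted p = 8.95e-05) and -0.16 against Ctrl (95% confidence interval -0.35 to 0.03, limma adjusted p = 0.128). All 3 members that rose in DNP vs Ctrl were therefore lower in PF than in DNP. Both comparisons use the same DNP samples, so these directions are not independent. Relative to Ctrl, Dusp6 was higher, Dusp4 was lower and Dusp7 was not called.

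The phosphatases of JNK and p38 parted. Dusp10 was at 10.4, 10.9 and 9.43 FPKM in DNP and at 20.1, 18.7 and 19.9 FPKM in PF. The groups did not overlap, and the log2 fold change was 0.87 (95% confidence interval 0.73 to 1.01, limma adjusted p = 8.02e-06). Dusp8 was at 14.8, 16.1 and 14.3 FPKM in DNP and at 25.1, 25.5 and 26.1 FPKM in PF. It was higher in each PF sample than in any sample of the other groups, with a log2 fold change of 0.72 against DNP (95% confidence interval 0.61 to 0.84, limma adjusted p = 8.10e-06). Dusp16 was at 36.3, 37.6 and 36.2 FPKM in DNP and at 19.2, 18.0 and 21.0 FPKM in PF. Dusp16 went the other way, with every PF sample below every DNP sample and a log2 fold change of -0.89 (95% confidence interval -1.02 to -0.76, limma adjusted p = 4.38e-06).

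Among the low members, Dusp2, a nuclear phosphatase best known from activated lymphocytes, was at 3.06, 2.99 and 3.31 FPKM in DNP and at 0.66, 1.35 and 1.45 FPKM in PF. PF replicate 1 was the lowest of the 9 samples. The log2 fold change was -0.96 (95% confidence interval -1.28 to -0.63, limma adjusted p = 6.81e-04), and with a pseudocount of 0.1 it was -1.43. Dusp14 was at 1.47, 1.52 and 2.08 FPKM in DNP and at 1.04, 1.09 and 1.00 FPKM in PF. The groups did not overlap, and the log2 fold change was -0.39 (95% confidence interval -0.63 to -0.14, limma adjusted p = 0.0158), or -0.63 with a pseudocount of 0.1. This call was lost without DNP replicate 3 (-0.29, limma adjusted p = 0.0522) and with only PF replicate 1, the PF sample given 4 h in both label fields (-0.39, limma adjusted p = 0.114). A related gene, Dusp14l1, was listed at 0.26 FPKM or less in every sample, and whether reads were shared between the pair was not tested. Dusp5 was at 1.13, 1.01 and 1.19 FPKM in PF and touched the DNP range, with a log2 fold change of 0.22 (95% confidence interval -0.06 to 0.50, limma adjusted p = 0.170).

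PF and Ctrl samples were compared last. By the same rule 57.7% of 10361 genes were called, 23.1% as higher and 34.6% as lower, and 9 of the 10 members were called, 5 higher and 4 lower. The same 9 did not overlap between groups, against 64.8% of all genes tested. With a pseudocount of 1, Dusp1 was the member called with a log2 fold change of 1 or more in size, as 3.37% of all genes tested were. Dusp2 lay just under that size at -0.997, with a 2.82-fold lower mean, and was at -1.48 with a pseudocount of 0.1. Dusp1 had a log2 fold change of 1.23 (95% confidence interval 1.05 to 1.41, limma adjusted p = 5.49e-06). Dusp10 (0.88), Dusp8 (0.56) and Dusp6 (0.55) rose as well. Dusp2, Dusp16 (-0.94), Dusp4 (-0.42) and Dusp14 (-0.33) fell, the last with a limma adjusted p of 0.0139 that became 0.0541 without Ctrl replicate 3 and 0.102 with only PF replicate 1. Dusp5 was called higher, but it passed the filter only through its PF samples, so it could be tested only because it was high there. The 9 members called, the 5 higher and the 9 without overlap include Dusp5, so these counts lend it no support. The log2 fold change of Dusp5, 0.59, became 1.30 with a pseudocount of 0.1 and so depends on that setting. Dusp5 could not be tested without any 1 of the PF samples, or with samples brought to the mean of the deposited sums. With a sum of 1000000 all 10 members were tested, and 5 were higher as in the main fit. The comparison shares its Ctrl samples with DNP vs Ctrl and its PF samples with PF vs DNP. Those comparisons share the DNP samples, so the 3 sets of values are not independent.

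The order of the members changed with the groups. In DNP, Dusp4 (112 FPKM) was followed by Dusp6 (46.1 FPKM), Dusp1 (41.9 FPKM) and Dusp16 (36.7 FPKM), and no neighbours overlapped. In PF, Dusp1 (94.3 FPKM) came first and Dusp4 (50.2 FPKM) second, apart from each other. Dusp6 (27.1 FPKM) and Dusp8 (25.6 FPKM) overlapped there, as did Dusp10 (19.6 FPKM) and Dusp16 (19.4 FPKM). The lowest 3, Dusp2, Dusp5 and Dusp14, could not be ordered in PF, since each overlapped the next.

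The summed level of the 10 genes was between 195 and 202 FPKM in Ctrl, between 272 and 275 FPKM in DNP and between 240 and 244 FPKM in PF. The sums did not overlap between groups. Dusp4 made up between 33.0% and 34.4% of the sum in Ctrl, between 40.7% and 41.7% in DNP and between 20.1% and 21.7% in PF. Dusp1 made up between 18.0% and 21.5%, between 14.0% and 16.0%, and between 36.2% and 40.8%. The ERK phosphatases Dusp6 and Dusp7 together took between 9.93% and 11.7% in Ctrl, between 18.5% and 19.2% in DNP and between 12.0% and 13.1% in PF. The JNK and p38 phosphatases Dusp8, Dusp10 and Dusp16 together took a mean of 32.7%, 22.7% and 26.6%. The sum is a description of mRNA and says nothing of protein or enzyme activity.

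**Figure D3:**
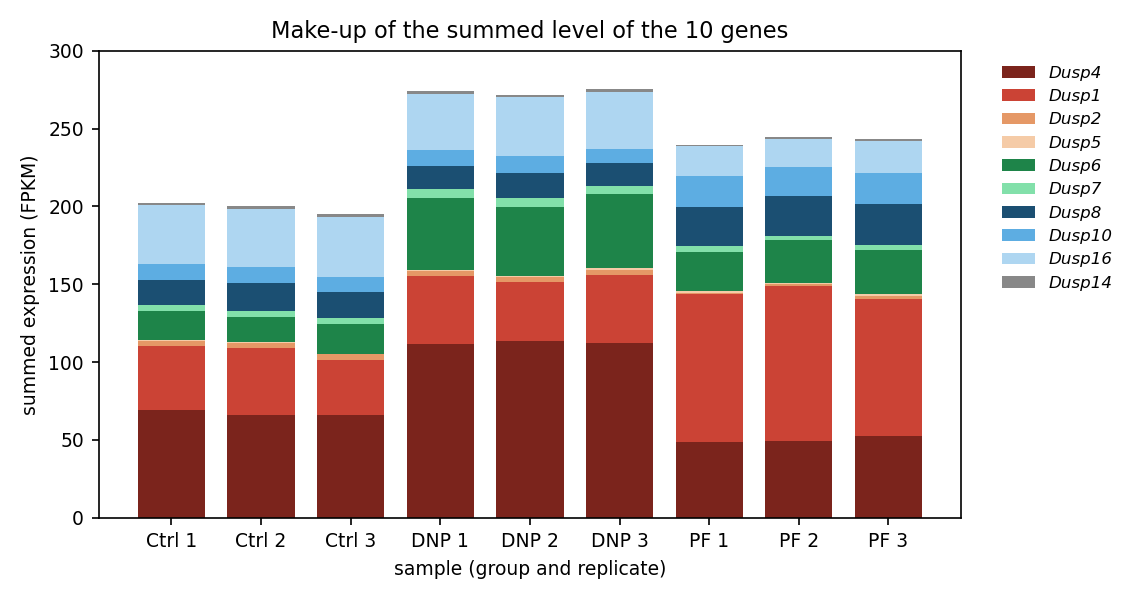
Stacked FPKM of the 10 genes in each sample, with the y axis starting at 0 and 1 colour per gene. The DNP bars are the tallest, at 272 to 275 FPKM, and in the PF bars the Dusp1 segment is larger than the Dusp4 segment.

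A ratio of 2 genes within a sample does not depend on how samples were scaled. Dusp1 to Dusp4 was between 0.530 and 0.651 in Ctrl, between 0.336 and 0.392 in DNP and between 1.67 and 2.03 in PF. PF thus held more Dusp1 than Dusp4 mRNA in each sample, and the other groups held less. Dusp10 to Dusp16 was between 0.247 and 0.288 in Ctrl and between 0.260 and 0.291 in DNP, which overlapped, and between 0.949 and 1.04 in PF. Dusp6 to Dusp4 rose in steps without overlap, from at most 0.288 in Ctrl to at most 0.424 in DNP and at least 0.524 in PF. Each of these differences between PF and DNP reached the lowest possible value, 0.1, in the same exact permutation test.

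**Figure D4:**
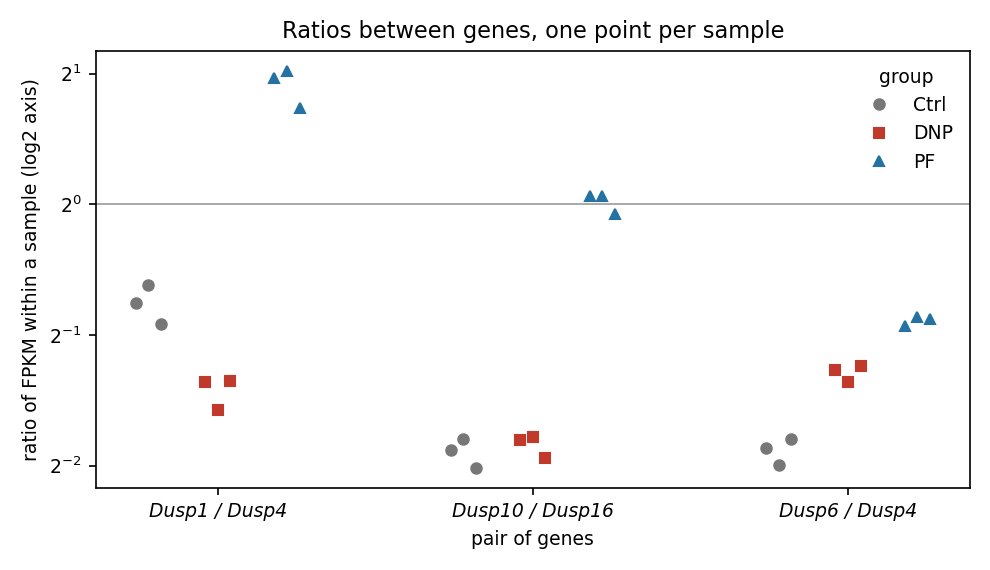
Ratio of the FPKM of 2 genes within each sample on a log2 axis, with circles for Ctrl, squares for DNP and triangles for PF. For Dusp1 to Dusp4 the PF samples lie above 1, between 1.67 and 2.03, and all other samples lie below it.

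Genes whose level followed that of a member were sought by Pearson's r of log2(FPKM + 1) over the 9 samples among 10489 genes, for the 3 tested members whose group means spread furthest. The samples fall into 3 groups, so a high r mostly says that 2 genes have a like order of group means. Closest to Dusp6 were Fam110a, the polo-like kinase Plk3, the p53 ligase Mdm2, the cytokine Il3 and Tent5a, with r between 0.985 and 0.990. For example, Il3 was at a mean of 4.18 FPKM in Ctrl, 20.1 FPKM in DNP and 7.33 FPKM in PF. Closest to Dusp4 were Itprid2, Cdc14a, Cldnd1, the transcription factor Foxp1 and the tyrosine phosphatase Ptpn12, with r between 0.993 and 0.998. Foxp1 was at 16.7, 29.4 and 12.6 FPKM, so it too was lowest in PF. Closest to Dusp1 were Hist1h2ai, LOC108348155, Sec61b and Cox7b, with r between 0.989 and 0.995. Hist1h2ai, a histone gene with near-identical copies whose reads are uncertain, was at 7.78, 8.02 and 24.3 FPKM.

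For the lists below, called counts are to be read beside the shares of all genes tested, as deposited. In DNP vs Ctrl 14.7% were called higher and 14.4% lower, in PF vs DNP 18.1% and 30.7%, and in PF vs Ctrl 23.1% and 34.6%. A count near its share says nothing particular of a list. The other dual-specificity phosphatases, a list of 19 genes of which 11 could be tested, differed between PF and DNP by a median of 0.30 in size on the log2 scale. In DNP vs Ctrl 2 of these rose and none fell (limma, adjusted p of at most 0.05). They were Dusp18, at 0.62 on the log2 scale (limma adjusted p = 3.31e-04), and the cofilin phosphatase Ssh1, at 0.44 (limma adjusted p = 0.00612). In PF vs DNP 1 rose and 6 fell. Dusp18 (-0.87) and Ssh1 (-0.85) were the lowest, so both were high in DNP and low in PF, as Dusp4 was. The one that rose, Dusp19 (0.30), was not called at a common sum (limma adjusted p = 0.0537). In PF vs Ctrl 6 fell, led by Dusp12 (-0.99) and Dusp23 (-0.86), while 8 fell at a common sum, and with median ratios 5 fell and 1 rose.

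The MAP kinase genes differed between PF and DNP by a median of 0.23 in size, beside 0.81 for the 10 members. Of 9 MAP kinase genes tested in DNP vs Ctrl, 3 rose and 1 fell. Mapk6 (0.30) and Mapk14 (0.22), which encodes p38α, rose, and Mapk7, which encodes ERK5, fell (-0.34). In PF vs DNP 2 rose and 4 fell. Mapk12, which encodes p38γ, rose from 1.43 to 2.83 FPKM, a log2 difference of 0.66 (limma adjusted p = 0.00196), and Mapk14 fell by 0.32 on the log2 scale. The second to rise, the ERK gene Mapk3 (0.15), was not called at a common sum (limma adjusted p = 0.239). In PF vs Ctrl 2 rose and 2 fell, against 2 and 3 at a common sum and 4 and 2 with median ratios. In that comparison Mapk12 was the highest, at 1.04, and Mapk7 the lowest, at -0.74. The Ctrl mean of Mapk12, 0.86 FPKM, was under the 1 FPKM of the filter.

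Of the MAP kinase kinases, Map2k3, an activator of p38, rose in DNP vs Ctrl (0.44) while Map2k5 and Map2k7 fell, out of 6 tested. In PF vs DNP 4 of 7 fell and none rose, Map2k3 the furthest (-0.57), and 5 fell at a common sum. In PF vs Ctrl 2 of 6 fell, Map2k5 (-0.69) and Map2k7 (-0.44), while 3 fell at a common sum, and with a sum of 1000000, where 7 were tested, 3 fell and 1 rose. Of the kinases above them, 5 of 14 fell in DNP vs Ctrl, led by Map3k1 (-0.38), and 4 fell at a common sum. In PF vs DNP 5 of 13 fell, led by Map3k3 (-0.65), and Map3k8 (0.29) rose, and 6 fell at a common sum. In PF vs Ctrl 7 of 14 were called lower and none higher, against 34.6% and 23.1% of all genes tested. With median ratios 6 were lower and 2 higher. Among the 7 was Map3k14, which passed the filter only through its Ctrl samples.

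Of the 9 MAP kinase-activated kinases tested, 2 rose and 2 fell in DNP vs Ctrl, with Mapkapk2 (0.37) and Mknk1 (-0.35) at the ends. In PF vs DNP 2 rose and 4 fell, and in PF vs Ctrl 3 rose and 3 fell, Mknk1 (-0.62) being the lowest. With median ratios 2 rose and 2 fell in PF vs DNP, and 4 rose and 3 fell in PF vs Ctrl. At a common sum 1 rose and 4 fell in PF vs DNP. The other phosphatases of MAP kinases differed between PF and DNP by a median of 0.16 in size on the log2 scale, like all genes tested. Of 6 tested, 2 fell in DNP vs Ctrl (1 at a common sum), 3 rose and 2 fell in PF vs DNP, and 2 rose and 4 fell in PF vs Ctrl. The tyrosine phosphatase Ptpn7 was the one with the highest log2 fold change in PF vs DNP, at 0.24, and the counts there were 1 higher and 2 lower at a common sum, and 3 higher and 0 lower with median ratios. In PF vs Ctrl, 1 rose and 4 fell at a common sum, and 2 rose and 1 fell with median ratios.

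Transcripts used as a readout of ERK signaling formed a list of 8 genes beside the DUSPs, and only Spry4, Phlda1 and Ccnd1 could be tested. Spry4, an inhibitor of Ras signaling, was at 1.57, 1.89 and 1.91 FPKM in Ctrl, at 5.31, 5.24 and 5.26 FPKM in DNP and at 1.88, 2.00 and 2.29 FPKM in PF. It was high in DNP alone, with log2 fold changes of 1.17 (limma adjusted p = 5.94e-05) in DNP vs Ctrl and -1.04 (limma adjusted p = 1.13e-05) in PF vs DNP. Phlda1 had 0.20 and -0.25, in the same directions. Ccnd1, which encodes cyclin D1, rose in PF vs DNP (0.50) and in PF vs Ctrl (0.59), and had 0.09 in DNP vs Ctrl (limma adjusted p = 0.611).

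**Figure D5:**
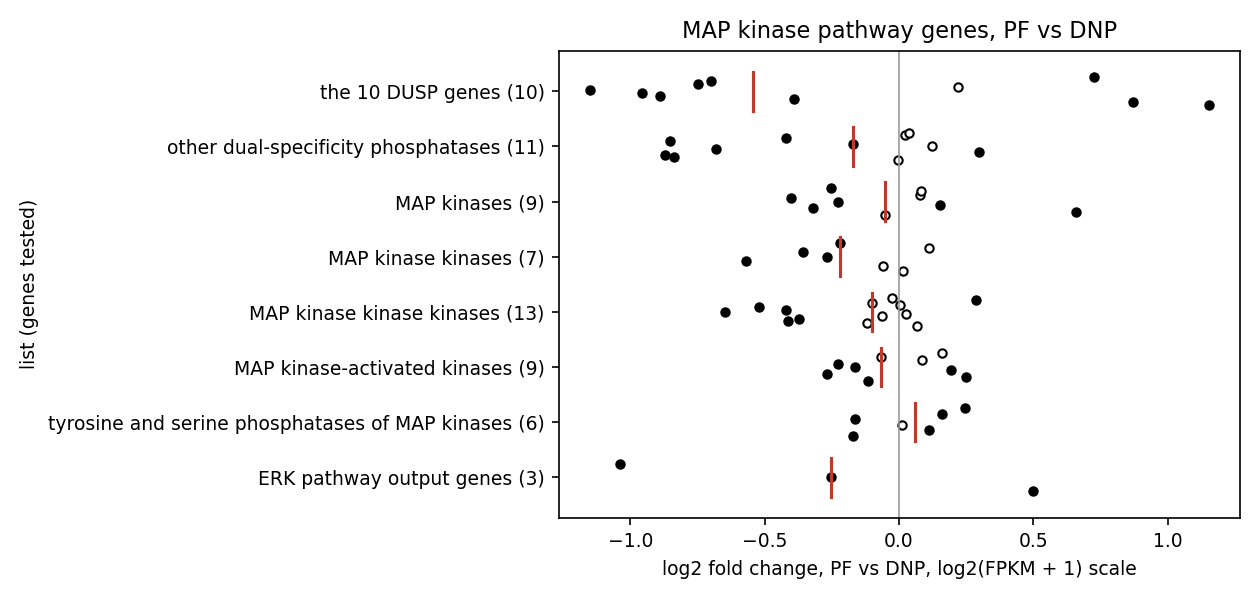
Log2 fold change in PF vs DNP of the tested genes of each list, 1 point per gene, filled where the adjusted p was at most 0.05, with a red line at the median of the list. The 10 DUSP genes spread from -1.15 to 1.15, and the ERK pathway output genes from -1.04 to 0.50. The other dual-specificity phosphatases spread from -0.87 to 0.30 and the MAP kinases from -0.40 to 0.66. The MAP kinase-activated kinases lie between -0.27 and 0.25.

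Promoter windows, from 250 bases before to 50 after the annotated start, were given by RefSeq on the GRCr8 build for 9 of the 10 members, all but Dusp4. The expression files were made on rn6, so these coordinates belong to GRCr8 only. The bases before the start are shown for 3 genes, the member highest in PF vs DNP, the member highest in DNP vs Ctrl and the member with the most motif matches. Capitals mark the motifs searched for on both strands, AP-1 (TGANTCA), CRE (TGACGTCA), EGR (GCGNGGGCG), ETS (ACCGGAAGT) and the serum response element.
Dusp1, chr10:17184603-17184852, plus strand: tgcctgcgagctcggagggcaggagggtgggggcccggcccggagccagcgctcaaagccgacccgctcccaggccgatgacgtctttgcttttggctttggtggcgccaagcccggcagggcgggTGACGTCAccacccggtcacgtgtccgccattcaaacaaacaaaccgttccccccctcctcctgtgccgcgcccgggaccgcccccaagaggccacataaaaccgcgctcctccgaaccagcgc
Dusp6, chr7:35979354-35979603, plus strand: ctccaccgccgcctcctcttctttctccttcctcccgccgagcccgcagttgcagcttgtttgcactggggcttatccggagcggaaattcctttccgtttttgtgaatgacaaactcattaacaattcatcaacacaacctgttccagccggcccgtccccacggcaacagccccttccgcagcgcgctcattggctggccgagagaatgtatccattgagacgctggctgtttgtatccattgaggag
Dusp5, chr1:262543524-262543773, plus strand: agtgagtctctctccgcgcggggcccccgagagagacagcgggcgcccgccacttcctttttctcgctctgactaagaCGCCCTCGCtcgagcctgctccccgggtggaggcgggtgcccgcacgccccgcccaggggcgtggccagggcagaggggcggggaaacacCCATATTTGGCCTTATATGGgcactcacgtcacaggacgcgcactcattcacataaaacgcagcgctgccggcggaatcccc

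The Dusp1 window held a CRE at position -124 from the start, the site type bound by CREB and ATF factors, which 1.83% of all 33469 windows held. The Dusp5 window held a pair of serum response elements side by side, CCATATTTGG at -82 and CCTTATATGG at -72, and 1.64% of all windows held at least one. EGR letters were found for Dusp2, Dusp5, Dusp8 and Dusp16, against 4.98% of all windows, with no account taken of base composition. Dusp14 had 3 windows, 1 of which held AP-1 letters, as 7.33% of all windows did. ETS letters, in 1.2% of all windows, were in none of the members. None of the 5 motifs was in the windows of Dusp6, Dusp7 or Dusp10. A match is only a run of letters, and no binding was measured.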

How the data were processed

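RNA-seq values of 9 RBL-2H3 samples were used, 3 per group, with groups and replicate numbers taken from the sample titles. Reads from a BGISEQ-500 were cleaned by the authors using SOAPnuke, and the submitters' processing notes name HISAT2 2.0.4, Bowtie2 2.2.5, RSEM 1.2.12 and rn6. The deposited values, 1 per gene and sample, are read as FPKM, since the heading names no unit and the values have decimals and unequal totals. Each file lists 38490 genes, of which 18006 have values. Files were joined by gene identifier.

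Values were tested with limma 3.58.1 in R 4.3.3 (lmFit, eBayes with trend) on log2(FPKM + 1), each comparison on its own 6 samples, at 0.05 after Benjamini-Hochberg adjustment over all genes tested. The script was tested on simulated data. Single ratios had a two-sided exact permutation test (SciPy 1.17.1). Members and gene lists were chosen with earlier results of these data known. The named genes were the 10 members, at most the 2 highest and 2 lowest called genes of each list, and the 5 genes most like each of 3 members, of which 1 is not reported here. Ccnd1, Spry4 and Dusp14l1 are also named where not called, Map3k14 for its filter,, and markers as a check of cell type. No label says that same-numbered samples shared more than a number, so the main fit has no block. Alternatives were another pseudocount, no filter, all groups in the fit, the block, limma without trend, 3 scalings, each sample left out in turn, and PF replicate 1 alone. A lone PF sample is assumed to vary like the other group. The precision rests on 3 replicates, and intervals cover their spread only.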

Additional observations from a re-analysis of the deposited data

How the results depend on the processing

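The number of members called stayed within 1.5 times the main count under each alternative run. It was 3 in DNP vs Ctrl, 9 in PF vs DNP and 9 in PF vs Ctrl with a pseudocount of 0.1, without a filter, with all groups in the fit, without trend, with median ratios and with a sum of 1000000. With the mean of the deposited sums it was 3, 9 and 8, as Dusp5 could not be tested in PF vs Ctrl. With only PF replicate 1 it was 8 in PF vs DNP and 7 in PF vs Ctrl. With each sample left out in turn it ranged from 3 to 4, from 8 to 9 and from 8 to 9, and members called lower in DNP vs Ctrl ranged from 0 to 1, through Dusp8. Without the filter Dusp5 entered DNP vs Ctrl and was not called. Some members that were not called in DNP vs Ctrl changed sign when a sample was left out. Their highest or lowest values on the other side were 0.14 for Dusp1, -0.11 for Dusp2, 0.062 for Dusp10 and 0.12 for Dusp14. Without Ctrl replicate 3, Dusp1 was at -0.0092, Dusp2 at 0.016 and Dusp10 at -0.035. Dusp10 was at -0.0016 without DNP replicate 1 and -0.036 without DNP replicate 2, and Dusp14 was at -0.042 without DNP replicate 3. No called member changed sign, and of the 420 values of single members under alternatives 4 lost a call, all of Dusp14. Over all genes, the calls in DNP vs Ctrl, PF vs DNP and PF vs Ctrl were 3031, 5042 and 5975.

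Adding the replicate number as a block gave 2697, 4675 and 6009, and the block changed no call of a member. Same-numbered samples correlated between -0.074 and 0.051, between -0.082 and 0.00049, and between 0.083 and 0.19 across genes in these comparisons. Only in PF vs Ctrl were all the pairs positive. The pairing was not used because no label says that same-numbered samples shared more than a number. Whether they were processed together is unknown. The read depth is unknown, so no limit from counts can be given for low genes such as Dusp5.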
